A study of Mus musculus with 42 samples.

Results

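Platelet depletion was compared with anti-Gr1 treatment in the carotid intima of wild-type mice after 48 hr of low flow. The comparison used 4 of the 42 samples of the series: the 2 pools whose labels give the platelet-depleting antibody anti-GPIba, and the 2 pools whose labels give anti-Gr1, at low flow. The question was what the loss of platelets changes in the low-flow intima beyond the loss of Gr1-positive cells, since both groups received a depleting antibody and both were ligated. The study ligated one carotid artery partially, so that flow in it became low and disturbed while flow in the contralateral artery became high, and it asked how recruited blood cells alter gene expression and splicing in the endothelium. All mice of these groups were male C57BL/6J (Jax) animals with no transgene or deleted gene. Each library came from a pool of RNA from several arteries, whose luminal side was flushed with Trizol, so it holds endothelial RNA together with RNA from adherent and neighbouring cells. Pools treated with control IgG, 2 at low flow and 2 at high flow, are given as the reference levels. Pools treated with clodronate or PBS liposomes at low flow, and with PBS liposomes at high flow, enter the tests, but their levels are not given. Anti-GPIba was injected once, at the time of ligation. Anti-Gr1, the antibody RB6-8C5, was injected the day before ligation and in a smaller amount. Antibody, dose and timing therefore differ together between the groups, and their effects cannot be told apart. RB6-8C5 binds Ly6G on neutrophils and also Ly6C on many monocytes, which limits anti-Gr1 as a model of neutrophil loss alone. The labels do not say how the pools relate to separate days or litters, so the p-values below measure only the spread between pools. For anti-GPIba against anti-Gr1, that spread was estimated, unless stated, over all groups in the fit, including those given IgG or liposomes. It is therefore not the spread of the 4 compared pools alone.

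Platelets stick to arterial walls through the GPIb complex, of which GPIba is the chain that binds von Willebrand factor. Once activated they release chemokines such as platelet factor 4 (Pf4) and pro-platelet basic protein (Ppbp), and they present P-selectin to passing leukocytes, which is one way by which neutrophils and monocytes are brought to disturbed arterial endothelium. Recruited monocytes become macrophages, which release further chemokines, proteases and growth factors. Endothelial cells sense the loss of laminar flow themselves, and the transcription factors Klf2 and Klf4 are the classical genes that laminar flow maintains.

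The promoters of 5 genes are shown because they stand for the groups of genes that the comparison turns on: Laptm5 and Cd53, which are made by leukocytes of most kinds, Cxcl3 and Cxcl1, neighbouring chemokine genes whose differences were unlike, and the platelet chemokine Pf4. Each is 300 bases long, from 250 bases before to 50 bases after the start of the gene, 5′ to 3′ on the strand of the gene, from RefSeq on GRCm38.p6. Capitals in Laptm5, Cd53 and Pf4 mark GAGGAA, the core of the site of PU.1, a transcription factor of myeloid cells, or AGATAA, a form of the GATA site. Capitals in Cxcl3 and Cxcl1 mark the NF-kB site searched, GGGA, any 1 base and TTTCC. The letters on the opposite strand were searched as well. The regions are chr4:130913066-130913365 on the plus strand for Laptm5, chr3:106790100-106790399 on the minus strand for Cd53, chr5:90785851-90786150 on the plus strand for Cxcl3, chr5:90890995-90891294 on the plus strand for Cxcl1, and chr5:90772185-90772484 on the plus strand for Pf4.
Laptm5: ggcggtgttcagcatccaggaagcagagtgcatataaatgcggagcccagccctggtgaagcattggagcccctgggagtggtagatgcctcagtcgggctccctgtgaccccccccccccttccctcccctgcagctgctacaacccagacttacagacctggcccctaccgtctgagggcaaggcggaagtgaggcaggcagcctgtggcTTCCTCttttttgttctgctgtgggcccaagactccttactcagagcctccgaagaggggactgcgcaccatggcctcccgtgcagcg
Cd53: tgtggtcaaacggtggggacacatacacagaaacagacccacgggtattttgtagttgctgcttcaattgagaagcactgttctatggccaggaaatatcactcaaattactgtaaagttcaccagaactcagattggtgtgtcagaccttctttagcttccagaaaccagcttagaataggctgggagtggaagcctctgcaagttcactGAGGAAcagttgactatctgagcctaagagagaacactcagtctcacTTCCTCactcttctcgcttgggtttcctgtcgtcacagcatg
Cxcl3: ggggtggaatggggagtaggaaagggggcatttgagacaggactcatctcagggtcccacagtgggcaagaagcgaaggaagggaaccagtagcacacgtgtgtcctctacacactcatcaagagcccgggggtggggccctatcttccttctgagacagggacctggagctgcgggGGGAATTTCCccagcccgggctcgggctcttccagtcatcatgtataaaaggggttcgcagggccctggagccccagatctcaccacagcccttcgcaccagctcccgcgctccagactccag
Cxcl1: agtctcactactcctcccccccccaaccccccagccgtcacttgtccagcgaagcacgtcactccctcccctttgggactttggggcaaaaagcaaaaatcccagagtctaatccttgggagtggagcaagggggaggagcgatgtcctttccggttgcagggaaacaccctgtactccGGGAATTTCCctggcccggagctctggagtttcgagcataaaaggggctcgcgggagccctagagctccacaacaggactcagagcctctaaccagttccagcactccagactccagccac
Pf4: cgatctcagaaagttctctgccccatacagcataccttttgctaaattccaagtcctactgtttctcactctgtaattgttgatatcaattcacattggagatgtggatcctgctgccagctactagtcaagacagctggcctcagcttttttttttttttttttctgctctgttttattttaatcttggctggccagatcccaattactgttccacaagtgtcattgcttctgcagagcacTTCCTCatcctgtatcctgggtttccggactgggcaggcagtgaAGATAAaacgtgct

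GAGGAA was present in 28.3% of the 32851 RefSeq promoters of this length. At least 1 promoter held it for 6 of 10 matched general leukocyte genes, for 9 of 13 matched monocyte and macrophage genes, for 7 of 12 matched platelet genes and for 6 of 17 matched chemokine and cytokine genes, against 31.3% of all 27025 genes. Genes of the lists with no entry in the table of promoters were not counted. The GATA letters were in 11.2% of promoters and 12.7% of genes, and in 4 of the 12 platelet genes, 3 of the 10 general leukocyte genes, 2 of the 13 monocyte and macrophage genes and 2 of the 17 chemokine and cytokine genes. The NF-kB letters were in 0.4% of promoters, in none of the matched genes of the other 3 lists, and in those of 5 of 17 matched chemokine and cytokine genes, which were Csf1, Il6, Cxcl3, Cxcl1 and Cxcl2. These matches describe the sequences only. The same NF-kB letters stand in Cxcl3, which had no counts in either anti-GPIba pool, and in Cxcl1, whose level overlapped between the groups.

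The 4 libraries held 15745615 to 18071727 counts. Levels are given as FPKM (counts per kilobase of effective gene length and scaled to the total of the library). Differences are log2 fold-changes of anti-GPIba over anti-Gr1, so that a negative value means a lower level after platelet depletion. The low-flow libraries of the treated mice were sequenced with one another, and the high-flow libraries in another run. The 2 anti-Gr1 pools were less alike than the others: the median absolute log2 difference between replicates was 0.50 for anti-Gr1, 0.25 for anti-GPIba and 0.31 for low-flow IgG, and 20.1% of genes differed more than 2-fold between the anti-Gr1 pools against 10.1% and 9.96%. In bulk RNA, fewer cells of a type and less RNA per cell cannot be told apart. A single value compared between 2 pools and 2 pools cannot pass 0.05 in an exact permutation test, whose smallest two-sided p is 0.333. The tests used here come from models fitted across all genes.

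By the edgeR quasi-likelihood test on the 7 treated groups, with an adjusted p under 0.05 as the threshold, 0 of 13401 genes (0%) were called between anti-GPIba and anti-Gr1. With only the 5 low-flow groups in the fit edgeR called 72 lower and 3 higher, and calls by edgeR below are those of the 7 groups unless stated. The smallest adjusted p was 0.06085, which Napsa, Itgb2, Il2rg, Laptm5 and Mbd2 shared. At an unadjusted p under 0.05, 1013 genes (7.56%) were lower and 396 (2.96%) were higher after platelet depletion. These counts moved with each library left out, to 1772 and 1019 without anti-Gr1 replicate 1, 481 and 171 without anti-Gr1 replicate 2, 592 and 197 without anti-GPIba replicate 1, and 569 and 204 without anti-GPIba replicate 2. DESeq2 on the same libraries called 314 genes lower (2.27%) and 41 higher (0.297%) of 13803. In simulated data of this design, with 200 genes changed by a log2 of 2, DESeq2 called 40 unchanged genes and edgeR 8. Of the changed genes DESeq2 found 153 and edgeR 121. The counts were drawn from spreads that edgeR estimated, equal in all groups, so the simulation lacked the wider spread between the anti-Gr1 pools. Calls by DESeq2 are taken as the less certain. Both anti-GPIba pools lay below both anti-Gr1 pools in 2757 genes (20.6%) and above both in 2886 genes (21.5%). The median log2 fold-change over all genes was −0.03. Against low-flow IgG, the same edgeR fit called 811 genes higher and 1405 lower for anti-GPIba, and 0 genes for anti-Gr1, where 2432 genes had an unadjusted p under 0.05. These last 2 comparisons share the IgG libraries, and each shares its depleted libraries with the direct comparison. In what follows, "lower" and "higher" describe levels, and a call is named with the test that made it.

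**Figure D1:**
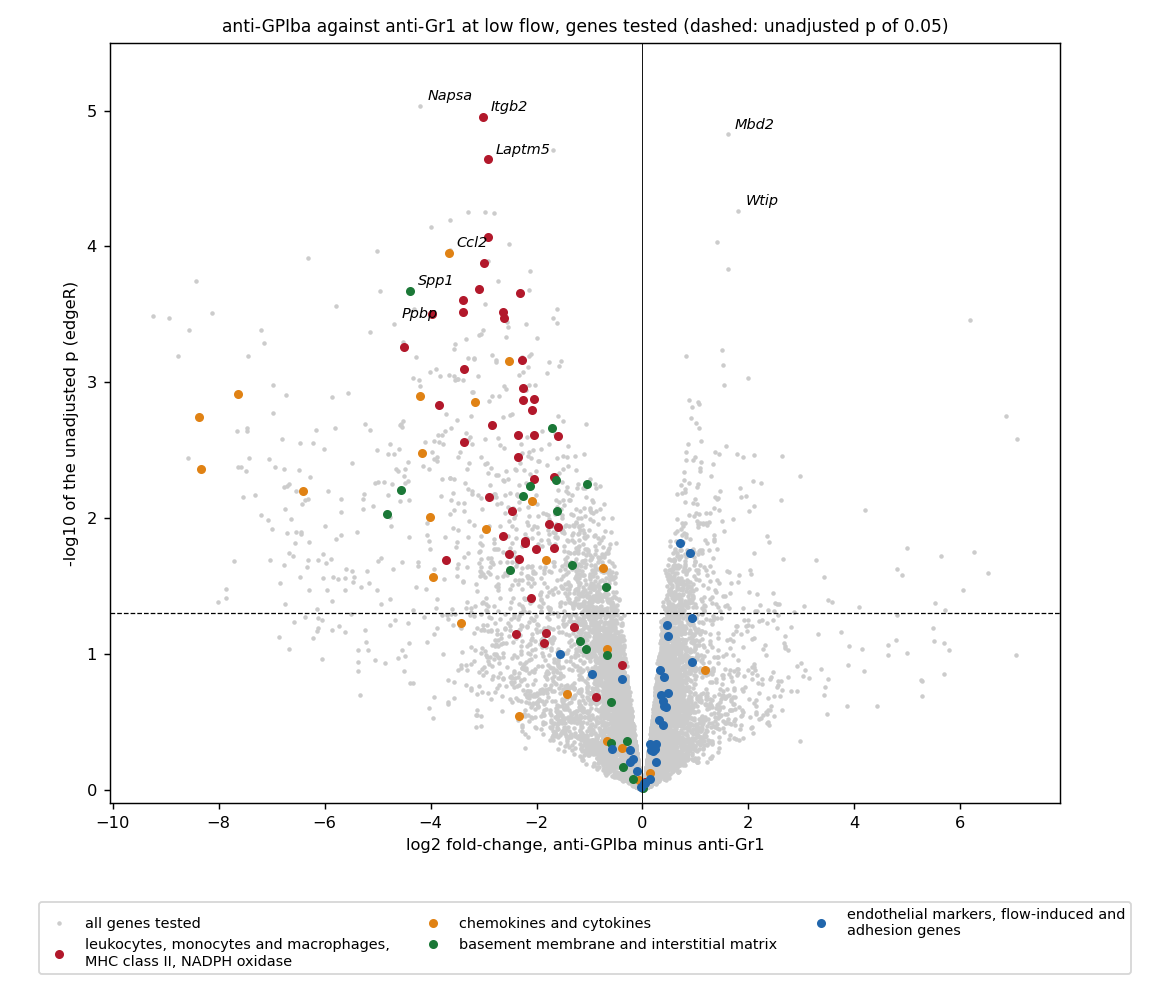
Log2 fold-change of anti-GPIba over anti-Gr1 (x axis) against −log10 of the unadjusted edgeR p (y axis) for the 13401 genes tested; coloured points are members of leukocyte, chemokine, matrix and endothelial lists, and the dashed line marks an unadjusted p of 0.05. Napsa (−4.20), Itgb2 (−3.0) and Laptm5 (−2.92) stand at the top on the left and Mbd2 (1.61) and Wtip (1.80) on the right.

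Transcripts of platelets were lower in the pools whose labels give the platelet-depleting antibody. Of 14 platelet genes, 13 passed the filter on low counts, 8 were lower in both anti-GPIba pools than in both anti-Gr1 pools (20.6% of all genes were), 6 of these had an unadjusted p under 0.05 (7.56% of all genes, and 3 platelet genes without anti-GPIba replicate 1 or anti-Gr1 replicate 2), and those called by DESeq2 were Ppbp and Gp5. The median log2 fold-change was −1.48, against −0.03 over all genes, and edgeR called 0 platelet genes, or 1 with the 5 low-flow groups and 1 without anti-Gr1 replicate 1. Ppbp, the platelet basic protein precursor (NCBIM37 chr5:91197544-91199086), had 0.182 and 0.414 FPKM in the anti-GPIba pools, from 3 and 7 counts, and 5.15 and 9.97 FPKM in the anti-Gr1 pools, from 85 and 147 counts. The anti-Gr1 pools were close to the low-flow IgG pools (9.60 and 3.98 FPKM), and both anti-GPIba pools were below all of these. The log2 fold-change was −4.68 ± 0.94 (SE), with an adjusted p of 0.106 in edgeR and 3.68e-05 in DESeq2, and it lay between −5.38 and −4.06 when any 1 of the 4 libraries was left out.

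Some platelet transcripts had no counts in either anti-GPIba pool. Gp5, a chain of the GPIb complex, had 0 counts in each anti-GPIba pool and 27 and 16 counts (0.748 and 0.497 FPKM) in the anti-Gr1 pools, a level at least 7.58-fold higher with anti-Gr1 if 3 counts per library are taken as the floor. Tubb1, the platelet β-tubulin, also had no count in either anti-GPIba pool and had 9 and 15 counts with anti-Gr1, at least 4.355-fold more. Treml1, a platelet granule receptor, had 0 and 0 counts against 3 and 23, so that the bound of 4.855-fold was 1.01-fold from anti-Gr1 replicate 1 alone. Others were lower but present. Pf4 (chr5:91201461-91202407) had 8.67 and 24.8 FPKM in the anti-GPIba pools and 31.8 and 46.0 FPKM in the anti-Gr1 pools, with 30.3 and 32.5 FPKM in the low-flow IgG pools. The groups did not overlap, but the anti-GPIba pools differed from one another more than the IgG pools did, and the log2 fold-change of −1.27 ± 0.62 (SE) had an unadjusted edgeR p of 0.0631. Itga2b, the integrin chain that marks megakaryocytes and platelets, had 0.671 and 1.78 FPKM against 2.496 and 3.99 FPKM (log2 fold-change −1.46 ± 0.55 SE, adjusted p = 0.391 in edgeR). Gp1bb and Gp9, the other chains of the GPIb complex, were at 0.153 to 0.4245 FPKM in the anti-GPIba pools and at 0.643 to 1.81 FPKM in the anti-Gr1 pools. The median of the list lay between −2.22 and −0.99 when 1 library was left out.

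One platelet gene went the other way. Gp1ba, which encodes the target of the antibody (chr11:70452624-70456328), had 6.29 and 4.28 FPKM in the anti-GPIba pools and 2.61 and 2.31 FPKM in the anti-Gr1 pools. Both anti-GPIba pools were above both anti-Gr1 pools and above the low-flow IgG pools (2.51 and 1.44 FPKM), and they were at the level of the high-flow IgG pools (4.97 and 5.03 FPKM). The log2 fold-change was 1.06 ± 0.38 (SE; adjusted p = 0.364 in edgeR and 0.184 in DESeq2). The antibody acts on the protein on circulating platelets, so this transcript does not check the label. Itgb3, Alox12 and Clec1b overlapped between the groups, and Gp6 had counts in 1 of the 4 pools and was not tested. The summed level of the 14 genes was 20.8 and 35.7 FPKM with anti-GPIba, 49.2 and 78.0 with anti-Gr1, 58.8 and 53.9 with low-flow IgG, and 16.2 and 26.6 with high-flow IgG.

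Transcripts of neutrophils were low after both antibodies, and lower after platelet depletion for part of the list. The summed level of 17 neutrophil genes was 18.3 and 36.9 FPKM with anti-GPIba and 33.5 and 69.6 FPKM with anti-Gr1, so that the groups overlapped, while the low-flow IgG pools had 506 and 150 FPKM. Of 15 genes tested, 7 did not overlap and were lower with anti-GPIba, 6 of them at an unadjusted p under 0.05, while over all genes 20.6% were lower without overlap and 7.56% at that p. The 6 became 3 without anti-GPIba replicate 1. Trem1, Csf3r and Fpr1 were called by DESeq2. The median log2 fold-change was −1.09, it became −0.24 without anti-Gr1 replicate 2, and 5 of the 15 genes were above 0. Csf3r, the receptor of granulocyte colony-stimulating factor, had 0.281 and 0.223 FPKM with anti-GPIba and 2.02 and 2.48 FPKM with anti-Gr1. Both groups were below the low-flow IgG pools (32.3 and 11.1 FPKM), and the direct log2 fold-change was −3.20 ± 0.74 (SE; adjusted p = 0.142 in edgeR and 0.000587 in DESeq2). Trem1, an activating receptor of neutrophils and monocytes, had no count in the anti-GPIba pools and 64 and 65 counts in the anti-Gr1 pools (1.27 and 1.44 FPKM), at least 23.1-fold more (DESeq2 adjusted p = 6.99e-05). Fpr1, a receptor for formylated peptides, had 0.144 and 0 FPKM against 1.15 and 2.21 FPKM, a count ratio of 23.2 with a 95% counting interval from 7.59 to 115.

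Other neutrophil genes were mixed. S100a8 had 0.683 and 3.34 FPKM with anti-GPIba and 4.10 and 15.6 FPKM with anti-Gr1 (log2 fold-change −2.33 ± 1.02 SE, edgeR adjusted p = 0.460). S100a9, its partner, had 3.62 and 8.84 against 8.72 and 14.6 FPKM and overlapped. Both were 36.8 FPKM or more in each low-flow IgG pool. Cxcr2, the chemokine receptor by which neutrophils answer Cxcl1 and Ppbp, had 0 and 0.153 FPKM with anti-GPIba, 0.782 and 0.307 FPKM with anti-Gr1, and 27.2 and 7.79 FPKM with low-flow IgG. Its direct log2 fold-change was −2.81 ± 1.24 (SE, edgeR adjusted p = 0.465), and the log2 fold-changes against low-flow IgG were −7.80 for anti-GPIba and −4.98 for anti-Gr1. Mpo, Ltf, Camp, Ngp, Mmp8, Fpr2 and Lcn2 overlapped between the groups. Elane and Stfa2l1 had no count in the anti-GPIba pools, were at 0 in at least 1 anti-Gr1 pool, and were not tested. Mmp9 was lower without overlap, at 0.0189 and 0.739 against 1.27 and 3.12 FPKM, with an adjusted p of 0.529 in edgeR. Retnlg had 0.978 and 2.51 against 6.97 and 7.13 FPKM.

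**Figure D2:**
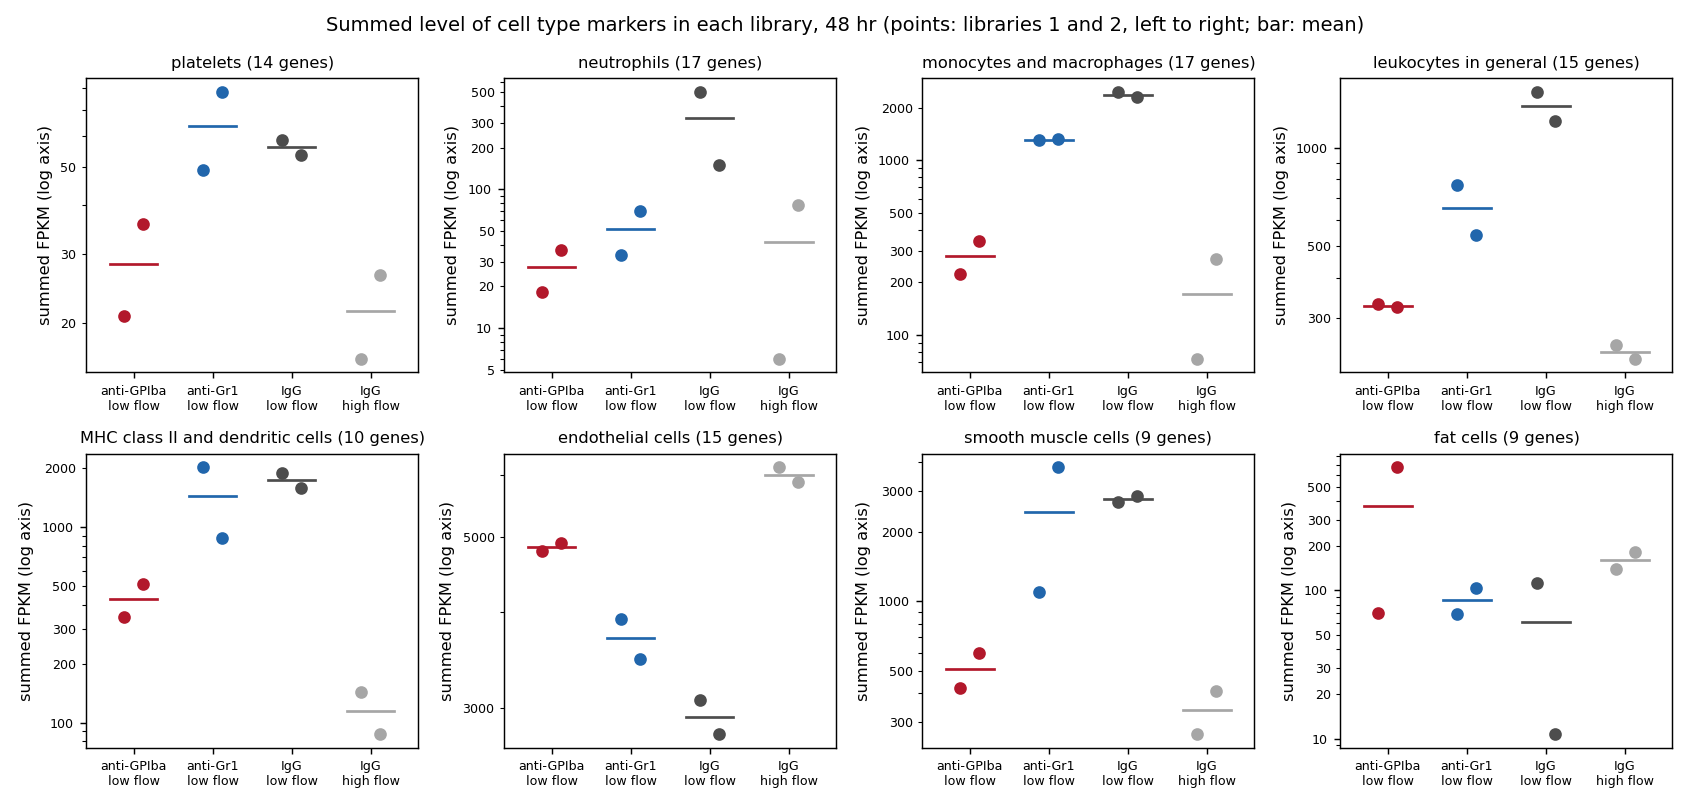
Summed FPKM (y axes, log scale) of the marker genes of 8 cell types in each of 8 libraries at 48 hr; points are the 2 libraries of a group and bars their mean. Monocyte and macrophage genes sum to 224 and 343 FPKM with anti-GPIba and to 1298 and 1325 FPKM with anti-Gr1, while the sums of neutrophil genes overlap between these groups.

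Monocyte and macrophage genes were lower after platelet depletion than after anti-Gr1 by value, and their calls depended on the fit. All 17 genes of this list were lower in both anti-GPIba pools than in both anti-Gr1 pools, which 20.6% of all genes were. Of the 17, 14 had an unadjusted p under 0.05 (82.4%, against 7.56% of all genes), 11 were called by DESeq2 (2.27% of all genes), and the median log2 fold-change was −2.26. EdgeR called 0 of them with the 7 groups, 5 with the 5 low-flow groups, and 2 without anti-Gr1 replicate 1. Their summed level was 224 and 343 FPKM with anti-GPIba, 1298 and 1325 FPKM with anti-Gr1, 2466 and 2289 FPKM with low-flow IgG, and 72.9 and 270.5 FPKM with high-flow IgG. The anti-Gr1 pools thus lay between the anti-GPIba pools and the low-flow IgG pools. The median of the list stayed between −2.49 and −2.11 when any 1 of the 4 libraries was left out. No gene of the list was at 0 in any of these low-flow libraries.

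Csf1r, the receptor by which monocytes and macrophages answer colony-stimulating factor 1, had 4.39 and 1.71 FPKM with anti-GPIba and 26.6 and 23.7 FPKM with anti-Gr1. Low-flow IgG pools had 47.3 and 41.1 FPKM and high-flow IgG pools 1.72 and 4.25 FPKM, so that the anti-GPIba pools were at the high-flow level. Its log2 fold-change was −3.09 ± 0.58 (SE; adjusted p = 0.102 in edgeR and 5.89e-06 in DESeq2). Ccr2, the receptor for Ccl2 on inflammatory monocytes (chr9:124016689-124028296), had 2.17 and 1.11 FPKM against 24.4 and 21.5 FPKM. The groups were far apart, at a 14.0-fold difference of means, with 47.2 and 37.5 FPKM in the IgG pools, and the log2 fold-change was −3.85 ± 0.92 (SE; adjusted p = 0.156 in edgeR and 0.0737 in DESeq2). Itgam, which encodes CD11b (chr7:135206154-135271674), had 0.537 and 0.0366 FPKM against 3.35 and 9.11 FPKM, and both groups were below the IgG pools at 17.5 and 11.7 FPKM. Its log2 fold-change of −4.51 ± 0.95 (SE) had a DESeq2 adjusted p of 8.41e-06.

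Lyz2, the lysozyme of myeloid cells, was the most abundant gene of the list, at 124.5 and 231.0 FPKM with anti-GPIba, 752 and 997 FPKM with anti-Gr1 and 1988 and 1869 FPKM with low-flow IgG. Both anti-GPIba pools were lower than the others at low flow (log2 fold-change −2.35 ± 0.61 SE, DESeq2 adjusted p = 0.00200). Cd68, a lysosomal protein of macrophages, had 8.59 and 9.80 FPKM against 29.9 and 24.0 FPKM, a 2.93-fold difference of means. Emr1, a surface receptor of mature macrophages, had 2.06 and 0.999 FPKM against 5.34 and 5.10 FPKM, and its unadjusted p in edgeR was 0.0697. Ly6c2, which encodes a protein that RB6-8C5 itself binds, had 1.38 and 1.60 FPKM with anti-GPIba, 2.76 and 10.53 FPKM with anti-Gr1 and 34.5 and 19.7 FPKM with low-flow IgG. It was lower without overlap after platelet depletion, although anti-Gr1 alone was already below IgG. The complement genes of resident macrophages differed in their reference level: C1qa had 13.2 and 13.8 FPKM with anti-GPIba, 69.6 and 39.4 FPKM with anti-Gr1 and 31.7 and 28.9 FPKM with low-flow IgG, so that here the anti-Gr1 pools were the highest. C1qb and C1qc had the same order of means, and DESeq2 called C1qa and C1qb but not C1qc (adjusted p = 0.0753).

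General leukocyte genes moved with the monocyte genes. Of 15 genes, 14 were lower without overlap at an unadjusted p under 0.05 (93.3%), while over all genes 20.6% were lower without overlap and 7.56% at that p, and the median log2 fold-change was −2.47. DESeq2 called 11, against 2.27% of all genes, and edgeR called 0 with the 7 groups, 6 with the 5 low-flow groups, and 4 without anti-Gr1 replicate 1. The exception was Arhgdib (log2 fold-change 0.05), which had 247 and 261 FPKM against 321 and 161.5 FPKM, a level far above that of the other genes of the list. Itgb2, the β2 integrin chain by which leukocytes adhere (chr10:76992997-77028453), had 3.13 and 2.3 FPKM with anti-GPIba and 17.5 and 24.3 FPKM with anti-Gr1. The IgG pools had 44.6 and 37.1 FPKM at low flow and 3.83 and 5.51 FPKM at high flow, so the anti-GPIba pools were below the high-flow level. The log2 fold-change was −3.0 ± 0.40 (SE; adjusted p = 0.06085 in edgeR and 7.42e-10 in DESeq2). Laptm5, a lysosomal protein of blood cells (chr4:130469040-130492056), had 9.07 and 4.49 FPKM against 53.5 and 46.0 FPKM. The anti-Gr1 pools were between these and the low-flow IgG pools (113.6 and 98.4 FPKM), and the means were 7.34-fold apart (log2 fold-change −2.92 ± 0.42 SE, DESeq2 adjusted p = 1.42e-08).

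Ptprc, which encodes CD45 and is the standard gene of all leukocytes, had 3.11 and 1.15 FPKM with anti-GPIba, 9.58 and 10.1 FPKM with anti-Gr1, and 34.1 and 25.1 FPKM with low-flow IgG. The anti-GPIba pools lay on either side of the high-flow pools (1.90 and 2.601 FPKM), and the log2 fold-change was −2.25 ± 0.53 (SE; adjusted p = 0.148 in edgeR and 0.00167 in DESeq2). Lcp1, the actin bundler L-plastin, had 7.5 and 4.08 FPKM against 46.3 and 38.7 FPKM, and Cd53, a tetraspanin, had 2.62 and 1.92 FPKM against 17.3 and 17.7 FPKM. Their log2 fold-changes were −2.92 ± 0.49 and −2.99 ± 0.53 (SE), and DESeq2 called both. Sfpi1, the gene of PU.1 itself, had 5.43 and 2.61 FPKM against 30.8 and 17.9 FPKM, without overlap, and was not called by DESeq2 (adjusted p = 0.271).

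The rule for naming genes gave 10 genes that were lower with the smallest p: Napsa, Itgb2, Il2rg, Laptm5, C5ar1, Tgfbi, Ly86, Fgr, Fcgr4 and Lcp1. Of these, Itgb2, Laptm5 and Lcp1 are in the list of general leukocyte genes and C5ar1 is in that of complement genes. Napsa, an aspartic protease gene (chr7:51827802-51842232), had 1.02 and 0.912 FPKM with anti-GPIba, 14.4 and 19.9 FPKM with anti-Gr1, and 51.0 and 47.0 FPKM with low-flow IgG. Anti-GPIba was at the high-flow level of 1.95 and 0.990 FPKM, and anti-Gr1 was 17.8-fold higher than anti-GPIba (log2 fold-change −4.20 ± 0.55 SE, DESeq2 adjusted p = 3.71e-11). Il2rg, the common γ chain of cytokine receptors (chrX:98459717-98463594), had 26.6 and 21.6 FPKM against 78.6 and 72.1 FPKM. Its anti-GPIba pools were below the high-flow IgG pools as well (33.6 and 33.7 FPKM), and the log2 fold-change was −1.69 ± 0.24 (SE; DESeq2 adjusted p = 4.42e-07). C5ar1, the receptor for complement C5a, had 1.55 and 1.51 FPKM against 14.2 and 9.40 FPKM. Fcgr4 and Fgr, an Fc receptor and a kinase of myeloid cells, were at 0.300 to 0.921 FPKM in the anti-GPIba pools and at 6.97 to 8.90 FPKM in the anti-Gr1 pools. Tgfbi, an adhesion protein that macrophages secrete, had 4.67 and 2.82 FPKM against 42.3 and 29.2 FPKM. Ly86, a partner of a Toll-like receptor homologue, had 2.26 and 3.38 FPKM against 22.0 and 16.7 FPKM.

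The oxidase of phagocytes and the genes of antigen presentation were also lower. Of 5 NADPH oxidase genes all 5 were lower without overlap, and 4 had an unadjusted p under 0.05, or 2 without anti-GPIba replicate 2. For these genes and those of class II below, the shares over all genes were 20.6% and 7.56%. EdgeR called 3 of the 5 with the 5 low-flow groups. Cybb, the catalytic chain (chrX:9012378-9064897), had 1.83 and 0.889 FPKM with anti-GPIba and 15.2 and 12.5 FPKM with anti-Gr1 (log2 fold-change −3.39 ± 0.66 SE, DESeq2 adjusted p = 8.15e-06). Cyba, which non-phagocytic cells also make, had the smallest difference, at 119 and 153 FPKM against 194 and 154 FPKM. Of 10 genes of MHC class II and dendritic cells, 9 were lower without overlap and 8 had an unadjusted p under 0.05. DESeq2 called 4 of them, against 2.27% of all genes called lower, and the median log2 fold-change was −2.08. Without anti-Gr1 replicate 1, 3 had an unadjusted p under 0.05 and the median was −1.36. H2-Ab1, a class II chain, had 83.8 and 92.4 FPKM with anti-GPIba and 523 and 196 FPKM with anti-Gr1, and its 2 anti-Gr1 pools stood on either side of the IgG pools (481 and 396 FPKM). The log2 fold-change was −2.05 ± 0.59 (SE; adjusted p = 0.243 in edgeR and 0.0152 in DESeq2) and lay between −2.56 and −1.25 when 1 library was left out. Itgax, which encodes CD11c, had 0.496 and 0.0998 FPKM against 2.95 and 3.04 FPKM (DESeq2 adjusted p = 0.000333). Among T and NK cell genes, 1 of 11, Cd247, was lower at an unadjusted p under 0.05 (9.09%, against 7.56% of all genes). Their median was −0.65, and it became 0.82 without anti-Gr1 replicate 1.

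**Figure D3:**
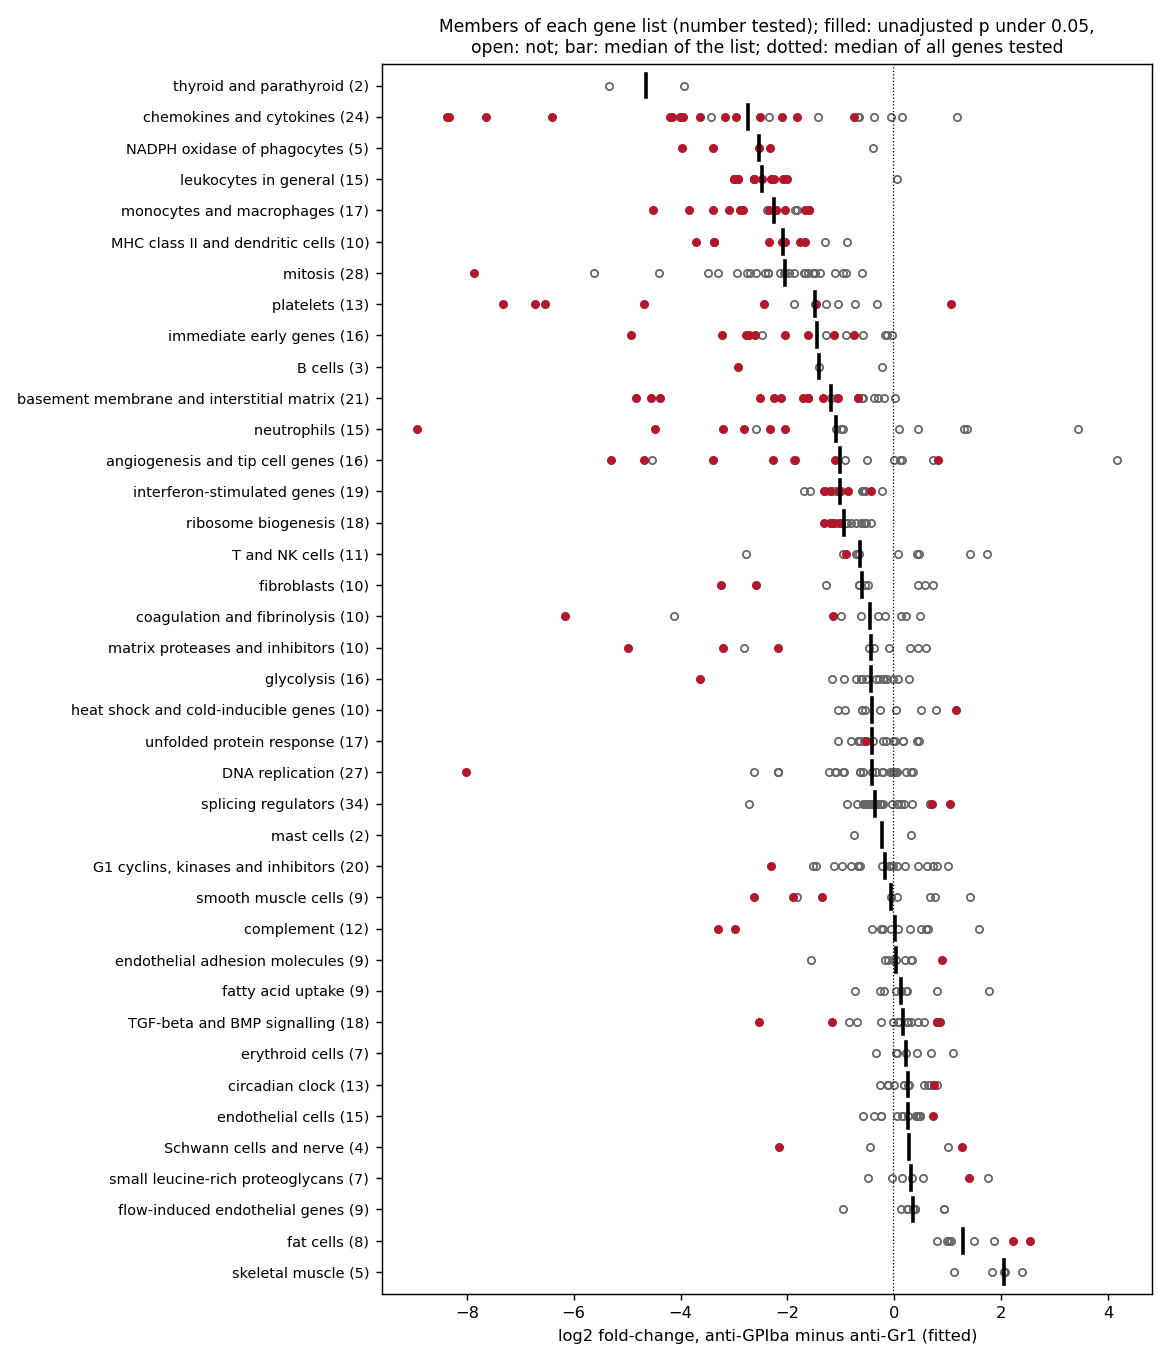
Fitted log2 fold-change of anti-GPIba over anti-Gr1 (x axis) for the tested members of 39 gene lists (rows); filled points have an unadjusted edgeR p under 0.05, bars are the median of the list and the dotted line is the median of all genes (−0.03). The lists of leukocytes, monocytes, phagocyte oxidase, class II and chemokines lie to the left with medians from −2.74 to −2.08, and those of endothelial and flow-induced genes lie near 0 (0.26 and 0.35).

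Chemokines and cytokines were mostly lower after platelet depletion. Of 24 genes tested, 19 were lower without overlap, 15 had an unadjusted p under 0.05 (62.5%, and 9 genes without anti-GPIba replicate 1), 9 were called by DESeq2, and the median log2 fold-change was −2.74, or −2.43 with genes at 0 counts set to their bound. Over all genes these shares were 20.6%, 7.56% and 2.27%. EdgeR called 0 with the 7 groups and 2 with the 5 low-flow groups. Ccl2, which attracts monocytes through Ccr2 (chr11:81849073-81850955), had 1.71 and 1.67 FPKM with anti-GPIba and 27.5 and 14.2 FPKM with anti-Gr1. The anti-Gr1 pools were at the level of low-flow IgG (24.7 and 11.3 FPKM) and the anti-GPIba pools near that of high-flow IgG (0.615 and 0.222 FPKM). Its log2 fold-change was −3.64 ± 0.63 (SE; adjusted p = 0.0875 in edgeR and 3.45e-06 in DESeq2). Ccl7, its neighbour on chr11 and another Ccr2 ligand, had 1.47 and 3.30 FPKM against 20.6 and 21.3 FPKM, and Ccl9 had 3.52 and 6.45 FPKM against 23.2 and 32.0 FPKM. DESeq2 called both, with adjusted p of 0.000353 and 0.000257.

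Chemokines that attract neutrophils were split. Cxcl3 had no count in either anti-GPIba pool and 3.0 and 3.07 FPKM in the anti-Gr1 pools, from 46 and 42 counts, at least 15.7-fold more (DESeq2 adjusted p = 0.00215). Cxcl5 had 0.225 and 0.586 FPKM against 4.84 and 9.29 FPKM, and its anti-Gr1 pools were above the IgG pools (2.05 and 2.61 FPKM). Cxcl1, in contrast, had 70.2 and 83.4 FPKM with anti-GPIba and 93.4 and 42.5 FPKM with anti-Gr1, with a log2 fold-change of 0.15 ± 0.48 (SE). Il1b, the inflammatory cytokine of monocytes and neutrophils (chr2:129190306-129196875), had 0.718 and 0.468 FPKM against 12.5 and 8.91 FPKM, and 189 and 47.2 FPKM with low-flow IgG. Both depleted groups were below IgG, and the direct log2 fold-change was −4.20 ± 0.96 (SE; DESeq2 adjusted p = 0.00530). Csf3, Il6 and Il1a had no count in the anti-GPIba pools. Csf3 was at least 9.23-fold higher with anti-Gr1 (0.5115 and 2.03 FPKM), Il6 at least 14.8-fold (0.3005 and 4.98 FPKM) and Il1a at least 3.98-fold (0.279 and 0.451 FPKM). The first 2 bounds rest on anti-Gr1 replicate 2, and from replicate 1 alone they were 3.71-fold for Csf3 and 1.69-fold for Il6. In the high-flow IgG pools these 3 genes and Il1b were at 0 as well. Cxcl12, which stromal and endothelial cells make, had 104.5 and 107 FPKM against 168 and 537 FPKM, with the second anti-Gr1 pool at the IgG level (433 and 459 FPKM).

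A few further genes with large differences were chosen after their values were seen. Alox15, a lipoxygenase of macrophages and eosinophils, had 0 and 1 counts against 119 and 57, a ratio of 188 with a 95% counting interval from 33.4 to 7481, and it was higher with anti-Gr1 (2.97 and 1.60 FPKM) than with IgG (0.802 and 0.648 FPKM). Spp1, osteopontin, which is also in the matrix list (chr5:104864137-104870069), had 11 and 2.49 FPKM against 102 and 167 FPKM, without overlap and with the anti-Gr1 pools inside the IgG range of 86.9 to 243 FPKM. Its log2 fold-change was −4.38 ± 0.82 (SE; adjusted p = 0.1015 in edgeR and 1.997e-07 in DESeq2). Prnd, a prion-like gene of endothelium, had no count after platelet depletion and 29 and 59 counts with anti-Gr1, at least 16.05-fold more (9.79-fold from the lower pool alone), with 6.37 and 16.6 FPKM in the IgG pools.

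Immediate early genes, which cells switch on within minutes of a stimulus, were lower as a list: 11 of 16 were lower without overlap, 9 had an unadjusted p under 0.05 (56.2%), 3 were called by DESeq2, and the median was −1.45. The shares over all genes were 20.6%, 7.56% and 2.27%. Without anti-GPIba replicate 1 or 2, the 9 became 3 and 2, with medians of −1.34 and −1.56. Egr2 had 0.723 and 0.647 FPKM with anti-GPIba and 6.17 and 6.24 FPKM with anti-Gr1, with very little spread within either group (log2 fold-change −3.22 ± 0.75 SE, DESeq2 adjusted p = 0.000841). Nr4a1 had 3.91 and 3.94 FPKM against 19.3 and 27.0 FPKM, and here the low-flow IgG pools were the ones apart, at 79.1 and 6.88 FPKM. Fos had 17.2 and 12.01 FPKM against 169 and 28.9 FPKM, and Egr1 had 39.8 and 19.8 FPKM against 179 and 63.6 FPKM, both with anti-Gr1 replicate 1 highest. Jun, at 200.4 and 156 FPKM against 232 and 162 FPKM, overlapped. The low-flow IgG pools of these genes were themselves far apart (273 and 27.6 FPKM for Fos), so they give no firm reference level for this list.

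Matrix genes were lower after platelet depletion, and their size rested on anti-Gr1 replicate 2. Of 21 genes of basement membrane and interstitial matrix, 14 were lower without overlap, 12 had an unadjusted p under 0.05 (57.1%), 8 were called by DESeq2, and the median was −1.19, which became −0.49 with 2 genes at an unadjusted p under 0.05 when that library was left out. Without anti-GPIba replicate 2, 6 matrix genes had an unadjusted p under 0.05. Over all genes 20.6% were lower without overlap, 7.56% at that p and 2.27% by DESeq2. EdgeR called 8 matrix genes without anti-Gr1 replicate 1. Thbs1, thrombospondin 1, had 331 and 255.5 FPKM with anti-GPIba and 393.5 and 2234 FPKM with anti-Gr1, against 922 and 854 FPKM with IgG. The first anti-Gr1 pool was near the anti-GPIba pools and the second above IgG, and the log2 fold-change of −2.25 ± 0.68 (SE) became −0.42 without the second. Fn1, fibronectin, had 37.0 and 21.1 FPKM against 41.6 and 127 FPKM, with 66.8 and 62.1 FPKM in the IgG pools, and its log2 fold-change of −1.61 ± 0.51 (SE; adjusted p = 0.288 in edgeR and 0.0340 in DESeq2) became −0.51. Col4a1 and Col4a2, the chains of basement membrane collagen, had 38.8 and 29.3 against 45.4 and 154 FPKM, and 16.5 and 11.9 against 22.4 and 65.5 FPKM, and their log2 fold-changes of −1.62 and −1.70 became −0.41 and −0.65. Among fibroblast genes, of which 2 of 10 were lower at an unadjusted p under 0.05 (7.56% of all genes) and the median was −0.60, the interstitial collagen Col3a1 differed from both anti-Gr1 pools. It had 7.78 and 9.97 FPKM against 32.8 and 68.7 FPKM, and IgG had 17.5 and 18.2 FPKM. Its log2 fold-change was −2.58 ± 0.60 (SE; DESeq2 adjusted p = 0.000353) and −1.88 without anti-Gr1 replicate 2.

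Of the 4 pools compared, anti-Gr1 replicate 2 was also the highest for Fosl1 and for several genes of contraction and sprouting. Fosl1 had 0.726 and 0.638 FPKM against 0.835 and 38.5 FPKM, Apln had 0.0189 and 0.129 FPKM against 0.170 and 5.58 FPKM, and Esm1 had 1.94 and 0 FPKM against 0.174 and 42.0 FPKM. In these 3 genes the first anti-Gr1 pool was at or near the anti-GPIba level, and for Esm1 the groups overlapped. Angpt2, a destabilising ligand of the Tie2 receptor, had 11.2 and 9.38 against 21.1 and 72.9 FPKM, and Pgf, placental growth factor, had 0.874 and 2.17 against 7.52 and 66.8 FPKM. Of 16 genes of angiogenesis and tip cells, 6 were lower and 1, Nrp1, was higher at an unadjusted p under 0.05, against 7.56% and 2.96% of all genes, and their median of −1.02 became −0.08 without that library. The 6 lower genes then became 0, and they became 3 and 1 without anti-GPIba replicate 1 and 2. Acta2, smooth muscle actin, had 244 and 362 FPKM against 715 and 2843 FPKM, with 2073 and 2349 FPKM in the IgG pools (log2 fold-change −2.63 ± 0.65 SE, DESeq2 adjusted p = 0.000578, and −1.23 without anti-Gr1 replicate 2). Tagln (139 and 178 against 332 and 799 FPKM) and Smtn were also lower and called by DESeq2, while the other 6 smooth muscle genes had an unadjusted p above 0.05. The median of the 9 genes was −0.06, and it lay between −1.34 and 0.37 when 1 library was left out. Myh11, the smooth muscle myosin, had 1.87 and 4.36 against 1.12 and 2.615 FPKM. Timp1, an inhibitor of matrix proteases, was lower with less dependence on 1 library, at 14.0 and 21.7 against 49.4 and 104 FPKM (log2 fold-change −2.17 ± 0.48 SE, DESeq2 adjusted p = 0.000587).

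**Figure D4:**
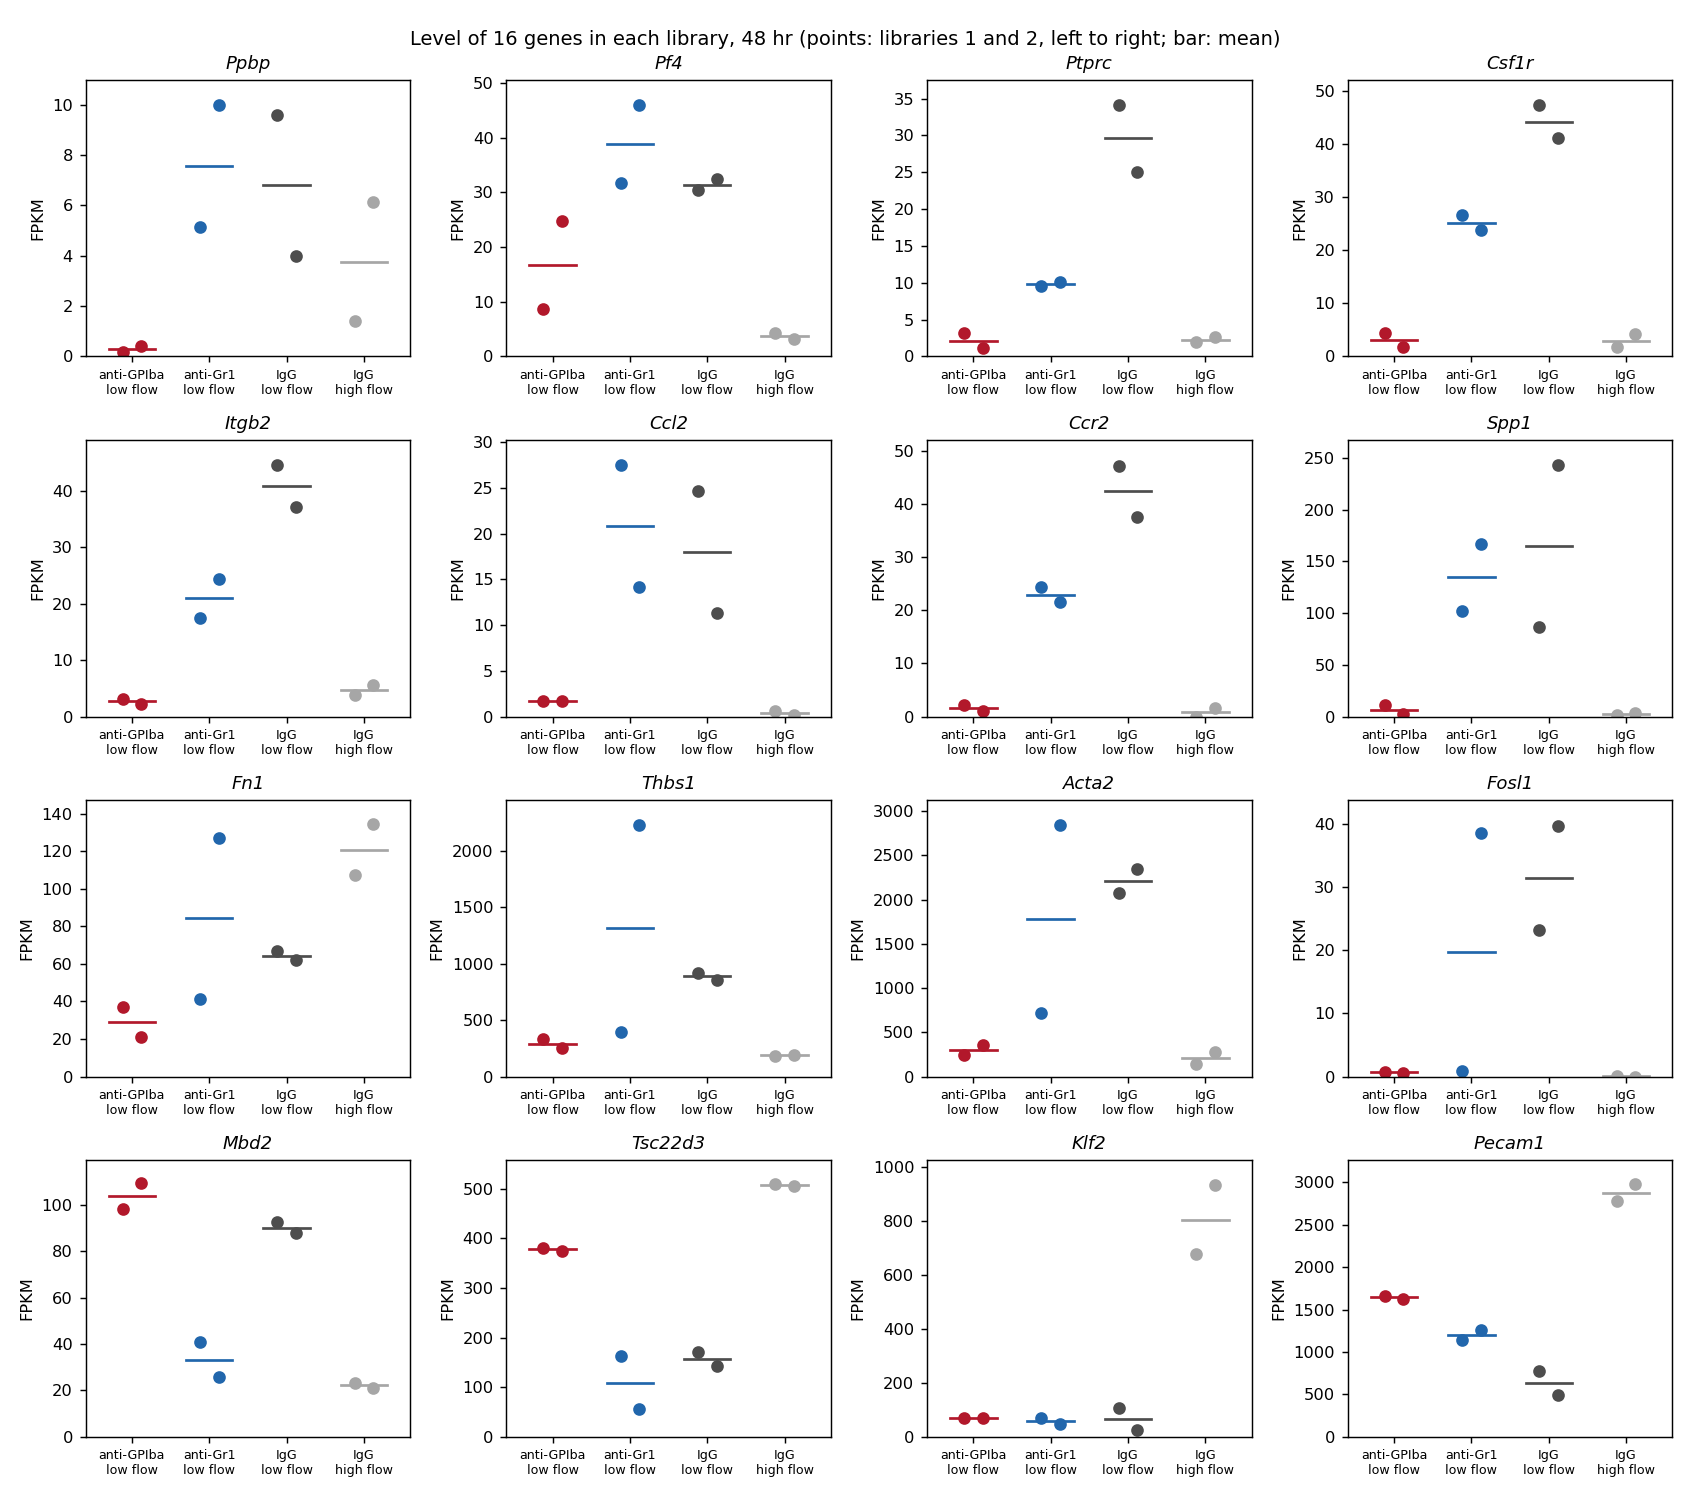
FPKM (y axes, from 0) of 16 genes in each library at 48 hr; points are the 2 libraries of a group and bars their mean. For Csf1r, Itgb2 and Ccl2 both anti-GPIba pools lie near the high-flow IgG pools and both anti-Gr1 pools higher, while for Fn1, Thbs1, Acta2 and Fosl1 the 2 anti-Gr1 pools lie far apart (0.835 and 38.5 FPKM for Fosl1).

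Ribosome biogenesis, interferon and class II genes showed how the anti-Gr1 pools differed from one another. Relative to low-flow IgG, the mean log2 level of 18 ribosome biogenesis genes was −1.37 and −1.12 in the anti-GPIba pools, −1.17 in anti-Gr1 replicate 1 and 0.17 in anti-Gr1 replicate 2. Their median was −0.95, and 7 were lower at an unadjusted p under 0.05 (38.9%, against 7.56% of all genes). The median became −0.07 without anti-Gr1 replicate 2 and −1.50 without anti-Gr1 replicate 1. It was −0.8 and −1.08 without anti-GPIba replicate 1 and 2. Nop56, a core protein of nucleolar particles, had 38.8 and 49.1 FPKM with anti-GPIba and 51.0 and 133 FPKM with anti-Gr1. Interferon-stimulated genes went the other way, at 0.58 and 0.47 in the anti-GPIba pools, 1.78 in anti-Gr1 replicate 1 and 0.96 in anti-Gr1 replicate 2. Usp18 had 4.91 and 9.86 FPKM against 23.5 and 9.88 FPKM. The median of the 19 genes was −1.01, and 5 were lower at an unadjusted p under 0.05 (26.3%, against 7.56% of all genes). This median was −0.33 without anti-Gr1 replicate 1 and −1.45 without anti-Gr1 replicate 2. It was −0.8 and −0.74 without anti-GPIba replicate 1 and 2. What set the 2 anti-Gr1 pools apart was not tested. Anti-GPIba replicate 2 stood apart in another way: its summed level of 9 fat cell genes was 673 FPKM, against 70.5, 69.1 and 104 FPKM in the other 3 pools, and that of 6 skeletal muscle genes was 89.3 FPKM, against 2.01, 24.9 and 4.47 FPKM. Cfd, which fat cells secrete, had 52.3 and 549 FPKM with anti-GPIba and 53.6 and 71.0 FPKM with anti-Gr1. The part of such tissue in the other differences was not tested, and the median of the monocyte and macrophage genes without this library was −2.49.

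Genes of the cell cycle were low in both depleted groups, and few passed a test between them. For mitosis, all 28 genes had a negative log2 fold-change and 27 were lower without overlap, which 20.6% of all genes were. Of the 28, however, 1, Fam83d, had an unadjusted p under 0.05 (3.57%, against 7.56% of all genes), and edgeR called 0. Birc5, survivin, had 1.76 and 1.13 FPKM with anti-GPIba and 11.1 and 3.55 FPKM with anti-Gr1, far below 76.9 and 153 FPKM with low-flow IgG, and its log2 fold-change was −2.36 ± 1.81 (SE). The median of the list was −2.05, and its medians against IgG were −5.74 for anti-GPIba and −3.67 for anti-Gr1. DNA replication genes had a median of −0.41, which lay between −0.76 and −0.15 when 1 library was left out. Of these 27 genes, 12 were lower without overlap and 1 was lower at an unadjusted p under 0.05 (3.7%). Pcna, the sliding clamp, had 58.5 and 49.97 against 53.6 and 57.6 FPKM, and Mcm6 had 51.9 and 50.6 against 62.7 and 85.7 FPKM, and the low-flow IgG pools had 140.8 to 255.5 FPKM for these 2 genes. Ccnd1, cyclin D1, was lower, at 9.29 and 3.83 against 18.1 and 44.0 FPKM (log2 fold-change −2.31 ± 0.63 SE, DESeq2 adjusted p = 0.00435).

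Few endothelial genes passed a test between the groups. Of 15 endothelial genes, 11 had a positive log2 fold-change, 6 were higher without overlap (21.5% of all genes), 1 had an unadjusted p under 0.05 (6.67%, against 2.96% of all genes), and the median was 0.26. Without anti-Gr1 replicate 1, 5 were higher and 2 lower at that p. Pecam1, which encodes CD31, had 1662 and 1628 FPKM with anti-GPIba, 1144 and 1264 FPKM with anti-Gr1, 770 and 496 FPKM with low-flow IgG and 2775 and 2984 FPKM with high-flow IgG. The 4 groups did not overlap, and the direct log2 fold-change was 0.40 ± 0.33 (SE; edgeR adjusted p = 0.684). The summed level of the 15 genes was 4792 and 4908 FPKM with anti-GPIba and 3915 and 3473 FPKM with anti-Gr1. In these 4 groups the mean endothelial sum was higher where the mean sum of general leukocyte genes was lower (332 and 324 FPKM with anti-GPIba, 770 and 540 FPKM with anti-Gr1). FPKM are shares of a library, and the part of this in each endothelial difference was not tested. Tek, the Tie2 receptor, had 167 and 158 FPKM against 99.9 and 91.8 FPKM, with a log2 fold-change of 0.72 ± 0.25 (SE; unadjusted p = 0.0153 in edgeR).

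Flow-induced genes were nearer to the low-flow than to the high-flow level in both groups. Klf2 (chr8:74842932-74845555) had 70.3 and 70.9 FPKM with anti-GPIba, 67.9 and 47.9 FPKM with anti-Gr1, 105 and 23.2 FPKM with low-flow IgG and 679 and 932 FPKM with high-flow IgG. The direct log2 fold-change was 0.25 ± 0.50 (SE). Klf4 had 9.16 and 14.6 FPKM against 7.92 and 4.27 FPKM, with 43.3 and 70.9 FPKM at high flow (log2 fold-change 0.93 ± 0.55 SE). None of the 9 flow-induced genes had an unadjusted p under 0.05, and their median was 0.35. Of the endothelial adhesion molecules, Vcam1 (972 and 812 against 1119 and 842 FPKM) and Icam1 (518 and 534 against 508 and 525 FPKM) overlapped, and Selp, P-selectin, had 598 and 606 against 546 and 383.5 FPKM. Splicing regulators, which the study was about, had a median of −0.36 that became −0.01 without anti-Gr1 replicate 2. Rbfox2 had 3.09 and 2.55 FPKM against 2.99 and 3.93 FPKM (log2 fold-change −0.35 ± 0.33 SE, edgeR adjusted p = 0.733). Qk, another splicing regulator, was higher, at 24.9 and 55.7 against 17.9 and 20.1 FPKM (adjusted p = 0.307 in edgeR and 0.0885 in DESeq2).

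The rule for naming genes also gave 10 genes that were higher after platelet depletion: Mbd2, Wtip, Trib2, Cul3, Tnfrsf21, Snx24, Ranbp9, Ier5l, Lrp3 and Tmem204, and DESeq2 called all of them. Mbd2, a protein that binds methylated DNA (chr18:70727843-70785785), had 98.4 and 109 FPKM with anti-GPIba and 40.7 and 25.9 FPKM with anti-Gr1. The anti-GPIba pools were near low-flow IgG (92.5 and 87.8 FPKM) and the anti-Gr1 pools near high-flow IgG (23.4 and 20.9 FPKM), the reverse of the leukocyte genes. The log2 fold-change was 1.61 ± 0.22 (SE; adjusted p = 0.06085 in edgeR and 2.62e-07 in DESeq2), and its distances from low-flow IgG were 0.17 for anti-GPIba and −1.43 for anti-Gr1. Cul3, a scaffold of ubiquitin ligases, had 20.2 and 36.9 against 9.28 and 8.90 FPKM, and 19.8 and 19.1 FPKM in the IgG pools. Wtip and Ier5l were also lower with anti-Gr1 than with low-flow IgG by value, with log2 fold-changes of 1.80 ± 0.29 and 1.98 ± 0.45 (SE) and distances of the anti-Gr1 pools from IgG of −1.01 and −1.87. Anti-GPIba was 0.79 above IgG for Wtip, 0.53 for Cul3 and 0.11 for Ier5l on the same scale.

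The other higher genes stood apart on the anti-GPIba side. Trib2, a pseudokinase (chr12:15798533-15823683), had 17.9 and 10.9 FPKM with anti-GPIba, 5.48 and 5.01 FPKM with anti-Gr1, 4.27 and 3.93 FPKM with low-flow IgG and 28.2 and 29.5 FPKM with high-flow IgG. The anti-GPIba pools were between the flow levels and the anti-Gr1 pools near the low-flow level (log2 fold-change 1.41 ± 0.24 SE, adjusted p = 0.0875 in edgeR and 6.99e-05 in DESeq2). Tnfrsf21, a death receptor, had 47.6 and 34.4 FPKM against 14.5 and 13.6 FPKM. Ranbp9 had 32.6 and 45.7 FPKM against 17.2 and 9.68 FPKM, above both IgG groups. Among genes chosen after their values were seen, Tsc22d3, a target of glucocorticoids, had 381 and 375 FPKM against 162 and 55.4 FPKM, with 509 and 505.5 FPKM at high flow and 172 and 144 FPKM with low-flow IgG. Its log2 fold-change was 1.78 ± 0.48 (SE; DESeq2 adjusted p = 0.0132). Perp, a desmosomal protein, had 200.4 and 172 FPKM against 86.4 and 36.6 FPKM, and Nrp1, a coreceptor of vascular endothelial growth factor, had 236 and 213 FPKM against 138 and 108 FPKM.

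**Figure D5:**
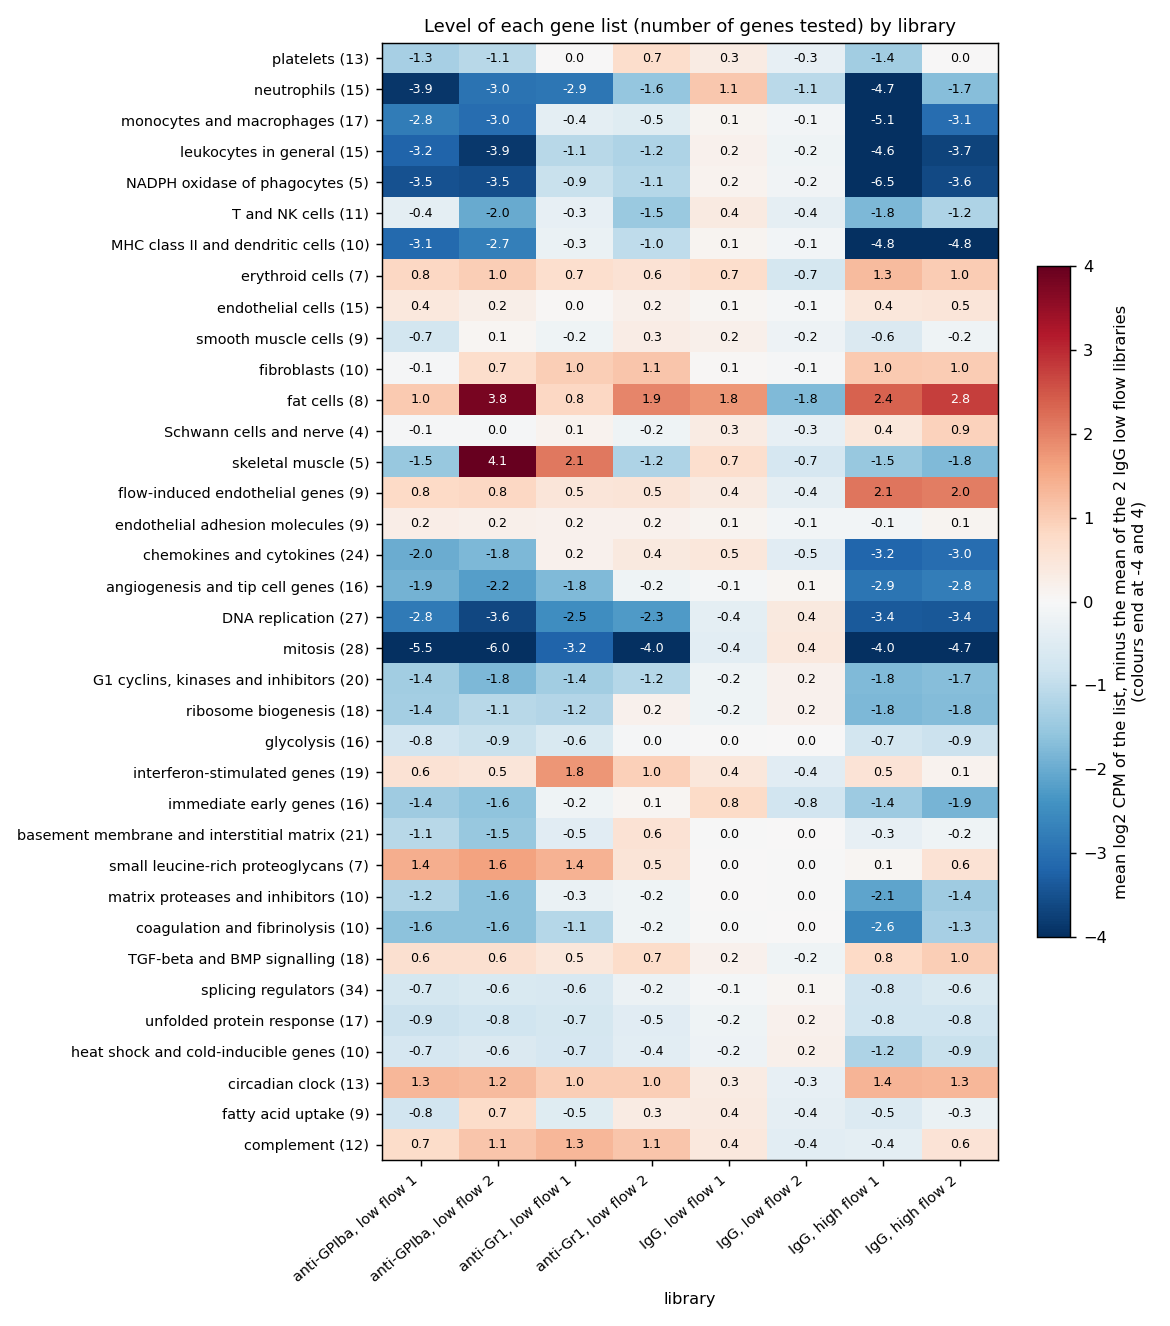
Mean log2 CPM of gene lists with more than 3 genes tested (rows, with the number of genes tested) in 8 libraries (columns), as the difference from the mean of the 2 low-flow IgG libraries; red is higher and blue lower. Monocyte and macrophage genes are at −2.80 and −3.04 with anti-GPIba and −0.40 and −0.47 with anti-Gr1, and ribosome biogenesis genes at −1.17 and 0.17 in the 2 anti-Gr1 libraries.

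The genes that low flow alters in untreated mice were set beside these differences. Untreated pools, 3 at low and 3 at high flow, gave 2790 genes raised and 2701 lowered at low flow by edgeR (adjusted p under 0.05), and these libraries are separate from the 4 compared here. In 2 of the 3 untreated low-flow pools the 100 most abundant genes held 50.8% and 52.0% of counts, against 29.6% in the third and 27.3% to 29.6% in the high-flow pools, and the part of this in the gene sets was not tested. Of the 2785 raised genes tested, 608 (21.8%) were lower at an unadjusted p under 0.05 after platelet depletion than after anti-Gr1 and 4 (0.144%) were higher, with a median log2 fold-change of −0.51, against 7.56% and 2.96% of all genes and a median of −0.03. DESeq2 called 228 of them lower and 0 higher, while over all genes it called 2.27% lower and 0.297% higher. Of the 2677 lowered genes tested, 13 (0.486%) were lower and 224 (8.37%) higher, with a median of 0.30, and DESeq2 called 1 lower and 25 higher. Without anti-Gr1 replicate 2 these medians were −0.24 and 0.22, and without anti-Gr1 replicate 1 they were −0.70 and 0.49. The 608 became 276 without anti-Gr1 replicate 2, 874 without anti-Gr1 replicate 1, and 349 and 333 without anti-GPIba replicate 1 and 2, and the 224 became 69, 609, 121 and 103 in the same order. Against low-flow IgG, the raised genes had medians of −1.17 with anti-GPIba and −0.65 with anti-Gr1, and the lowered genes 0.73 and 0.44.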

How the data were processed

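Carotid intima was flushed with Trizol, RNA of several arteries was pooled, and libraries were made with the SMARTer Universal Low Input kit and read as 150 bp pairs. The authors deposited expected counts per gene, with gene lengths and effective lengths, in 1 table. The submitters' processing notes name STAR 2.5.1b, RSEM 1.2.15 and the mm9 genome. The table also holds columns of other samples and units, and 171 of its 204 value columns were not used. Of 21675 rows 1 had no gene name or value and was left out.

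Expected counts were rounded to whole numbers and tested with edgeR 4.0.16 (R 4.3.3, limma 3.58.1): filterByExpr, TMM factors and the quasi-likelihood F-test with Benjamini-Hochberg adjustment, over 14 libraries of 7 treated groups of 2 at 48 hr, with a threshold of 0.05. The 7 groups were anti-GPIba, anti-Gr1, IgG, clodronate liposomes and PBS liposomes at low flow, and IgG and PBS liposomes at high flow. FPKM were computed from expected counts, effective lengths and library totals of 15745615 to 18071727 counts in the 4 libraries compared. Where both libraries of a group had no count, a floor of 3 counts per library gave a bound on the fold, and where a group had 1 to 3 counts a ratio with an exact 95% counting interval is given. Both cover counting error only. The scripts were tested on simulated data, in which DESeq2 made more calls than edgeR among unchanged genes and also among changed genes. DESeq2 1.42.0, other scalings, filters and groups in the fit, a replicate block and the omission of each library were tried as alternatives. The other tools were Python 3.11.15, numpy 2.4.6, pandas 2.3.3 and scipy 1.17.1.

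The 39 gene lists hold 549 genes, of which 546 were in the table, 1 of them under an older symbol (Spi1 as Sfpi1), and 514 passed the filter. Ly6g, Col6a3 and C7 were not analysed here. The lists and the comparison were chosen with earlier results of these data known. Named genes are the 10 with the smallest unadjusted p in each direction among genes whose groups do not overlap and whose higher group has a mean of at least 1 FPKM, up to 3 members of each list with the highest FPKM and up to 6 that were called, the platelet and neutrophil genes, and Ptprc, Cd68, Emr1, Itgam, Cxcr2, Fn1, Rbfox2, Klf2 and Klf4. Other genes were chosen after their values were seen. Some genes that the rule names are not reported here. Gene coordinates are those of NCBIM37 (mm9). Counting is not stated to use strand, so reads of overlapping antisense genes cannot be told apart.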

Additional observations from a re-analysis of the deposited data

How the results depend on the processing

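The count of 0 genes called between anti-GPIba and anti-Gr1 by edgeR was also 0 with RLE or upper quartile factors and with a mean of at least 1 CPM as the filter. A required log2 fold-change of at least 1, the other planned choice, can only lower a count and says nothing about a count of 0. It was 71 with only these 2 groups in the fit, 75 with the 5 low-flow groups, 76 with no filter on low counts, 355 by DESeq2 on the 7 groups, and 493 by DESeq2 on the 2 groups. With reads trimmed to 100 bp and the 5 low-flow groups in the fit, an alternative chosen after seeing the data, it was 50, against the 75 of the same groups untrimmed. The cause of these differences was not tested. Leaving out 1 library gave 0 to 150 calls, and the 150, of which 138 were lower and 12 higher, came without anti-Gr1 replicate 1. The labels do not say whether the replicate numbers pair the samples. The correlation of replicate differences across genes between the 2 groups was 0.003, which cannot exclude a pairing. Over the 21 pairs of treated groups this correlation ran from −0.155 to 0.443 and was over 0.1 in 8. With the replicate block 4 genes were called. Of 181 named genes tested, 66 passed the threshold under at least 1 alternative. Of 585 list medians under alternatives, 21 moved by more than the median standard error of the genes of the list, and a list with no gene left under an alternative has no value there. The median changed sign under some alternative for 11 of 42 lists and gene sets, and of these T and NK cell genes (−0.65) became 0.82 without anti-Gr1 replicate 1 and 0.25 with the filter at 1 CPM, and fat cell (1.28) and skeletal muscle genes (2.05) became −0.51 and −3.71 without anti-GPIba replicate 2. Of 2500 gene values under alternatives, 27 were reversed or, for Pth and Tg, came to 0.0, when 1 library was left out. The log2 fold-changes of these genes then ranged from −2.56 to 2.17 for Acta1, −0.39 to 2.29 for Adipoq, −1.33 to 0.23 for Alox12, −0.33 to 0.56 for Arhgdib, −0.05 to 0.78 for Bmp4, −0.31 to 3.09 for Cfd, −0.04 to 2.66 for Cidec, −7.83 to 5.23 for Ckm, −2.09 to 1.25 for Cma1, −0.51 to 0.8 for Dbp, −0.15 to 1.34 for Dcn, −12.37 to 2.45 for Esm1, −0.29 to 2.58 for Fabp4, −1.88 to 0.67 for Fpr2, −0.59 to 0.01 for Hnrnpf, −1.16 to 0.42 for Ifit3, −1.77 to 0.46 for Itgb3, −1.28 to 0.72 for Lpl, −1.05 to 0.24 for Lum, −2.95 to 3.11 for Mmp8, −3.12 to 6.58 for Mpo, −4.83 to 0.0 for Pth, −0.42 to 0.14 for S100a10, −0.26 to 0.69 for Serping1, −6.26 to 0.0 for Tg, −3.71 to 10.53 for Tnnt3 and −0.06 to 0.36 for Xbp1. With 2 pools in a group, genes of few counts, such as most platelet and neutrophil genes, are the least certain.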

Other observations

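Erythroid transcripts were present in all 4 pools. The summed level of 7 erythroid genes was 2336 and 2745 FPKM with anti-GPIba and 2545 and 1592 FPKM with anti-Gr1, and 0 of the 7 had an unadjusted p under 0.05 in edgeR. Genes of the circadian clock gave a median of 0.25 on the log2 scale. For them, 6 of 13 were higher with anti-GPIba without overlap, against 21.5% of all genes, and 1 was higher at an unadjusted p under 0.05, against 2.96%. Complement genes summed to 4880 and 5098 FPKM with anti-GPIba and 3687 and 2887 FPKM with anti-Gr1, against 1456 and 799 FPKM with low-flow IgG, and the median of the 12 tested was 0.01.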
